A study of Homo sapiens with 3 samples.

Results

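The genes for the proteins of the large ribosomal subunit were examined for peaks of RNA bound by RPL22-HaloTag and by RPL22L1-HaloTag. The list held 44 genes, from RPL3 to RPLP2, of 59675 RefSeq genes placed on the chromosomes of GRCh38, and RPL22 and RPL22L1 themselves were not part of it. A peak belonged to a gene when its summit, the highest position of the peak, lay within the bounds of the gene. Peaks whose summit lay in a snoRNA gene held within these bounds were kept apart. Of 154000 peaks in the RPL22-HaloTag library, 89 had their summit in these genes, 75 outside snoRNA genes and 14 inside. Of 254413 peaks in the RPL22L1-HaloTag library, 264 did, 247 outside snoRNA genes and 17 inside.

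GoldCLIP, which ties a HaloTag fusion covalently to beads after crosslinking and sequences the RNA that stays bound, was applied to HCT116, an established human colorectal carcinoma line. The groups were HCT116 cells with HaloTag alone, with RPL22-HaloTag and with RPL22L1-HaloTag, 1 library each, all grown in the same medium with no treatment named. Whether a fusion was expressed from the endogenous locus or from a transgene, and in how many clones, is not given in the sources used here. The library of cells with HaloTag alone was not analysed here, and no value is set against it. RNA levels were not analysed either, so a bound share and the abundance of an RNA cannot be told apart. The peak lists of the other libraries are called the RPL22 list and the RPL22L1 list. With 1 library per group no difference has a replicate check and none was tested. Intervals in brackets after a share are 95% Clopper-Pearson intervals, which are exact and cover counting error only. The number of reads behind each list is unknown.

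RPL22 belongs to the large subunit itself and binds structured RNA, and RPL22L1 is its paralog, which can take its place on the ribosome. Ribosomal protein mRNAs are among the most abundant in a growing cell, and most begin with a run of pyrimidines, the terminal oligopyrimidine tract, through which their translation is regulated together. Many of these genes carry snoRNA genes in their introns, short RNAs that guide the modification of rRNA and are cut from the spliced intron. Some of the proteins also act away from the ribosome, as RPL5 and RPL11 do when they bind MDM2.

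A summit outside snoRNA genes lay in 29 of the 44 genes for RPL22, which is 65.9% (50.1 to 79.5%), and in 34 for RPL22L1, which is 77.3% (62.2 to 88.5%). All 29 genes of the RPL22 list were among these 34. Over all protein-coding genes the shares were 68.2% and 69.7%. The large subunit genes are short, from 1335 to 17436 bases with a median of 5034. Among the protein-coding genes within this range of length 51.5% held an RPL22 summit and 53.0% an RPL22L1 summit. At least 3 summits lay in 11 genes for RPL22, 25% of them, against 51.7% of all protein-coding genes and 29.7% of those of like length. For RPL22L1 it was 29 genes, 65.9%, against 54.9% and 35.3%. The number of summits per gene was higher in the RPL22L1 list for 33 genes and higher in the RPL22 list for RPL36 only. Per kb of gene there were 0.285 RPL22 summits and 0.939 RPL22L1 summits, against 0.239 and 0.358 for protein-coding genes in the same range of length.

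**Figure D1:**
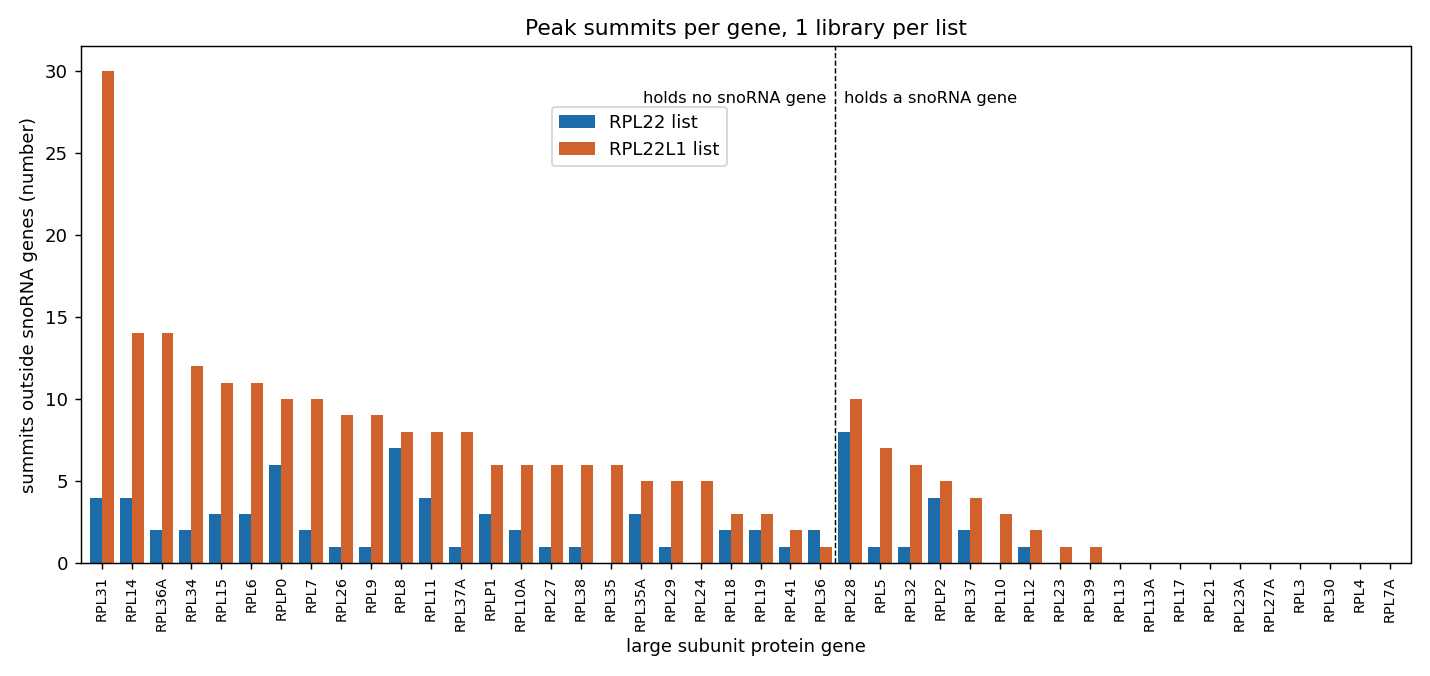
Number of peak summits outside snoRNA genes in each of the 44 large subunit protein genes, for the RPL22 list (blue) and the RPL22L1 list (orange), 1 library each. Genes left of the dashed line hold no snoRNA gene; RPL31 reached 30 RPL22L1 summits, and 10 genes on the right held none in either list.

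The genes were also counted by role in the subunit, in groups of 1 to 26 genes. Differences between these small groups were not tested. Over all protein-coding genes 68.2% held an RPL22 summit and 69.7% an RPL22L1 summit, and of the 44 genes 65.9% and 77.3% did. The genes of the stalk that receives the elongation factors, RPLP0, RPLP1, RPLP2 and RPL12, all held summits in both lists, with 14 RPL22 and 23 RPL22L1 summits in all. So did RPL5 and RPL11, which enter the subunit together with its smallest rRNA, with 5 and 15 summits, and RPL10A, the protein of the mobile L1 stalk, with 2 and 6. Of the 15, the 7 in RPL5 also lie within DIPK1A, which overlaps RPL5. Of 4 genes whose proteins lie near the peptidyl transferase centre, RPL8 alone held summits in both lists, 7 and 8. RPL10, which joins late in assembly, held 0 and 3, and RPL3 and RPL4 held 0 in both. Of 7 genes for proteins of the peptide exit tunnel and its rim, 3 held an RPL22 summit and 5 an RPL22L1 summit, and 30 of their 49 RPL22L1 summits lay in RPL31. Of these 30 summits 23 also lie within TBC1D8, which overlaps RPL31, 12 were not flat, and 6 stayed in the list of equal size described further on. The other 26 genes held 40 and 143 summits, with an RPL22 summit in 18 and an RPL22L1 summit in 20. The roles differed in how many of their genes hold a snoRNA gene, and the counts of summits did not follow this throughout. Of the 4 genes near the peptidyl transferase centre 3 hold a snoRNA gene, as do 3 of the 7 exit tunnel genes. So do 2 of the 4 stalk genes, RPL5 and 10 of the other 26, but not RPL11 or RPL10A. All stalk genes and RPL5 held summits in both lists all the same. Each gene without a summit in either list holds a snoRNA gene, so role was not tested apart from it.

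Most peaks of these genes were shaped. A peak is called flat here when its width is exactly 30 bases and its summit is the middle position. Of the 75 RPL22 peaks 65 were not flat, or 86.7%, against 38.4% of the RPL22 peaks in all protein-coding genes. Of the 247 RPL22L1 peaks 152 were not flat, or 61.5%, against 23.6%. At least 1 peak that was not flat lay in 29 and 33 of the 44 genes, 65.9% and 75% of them, where the share was 51.6% and 45.3% over all protein-coding genes and 37.6% and 30.5% over those of like length. The shares were 68.8% and 71.9% in the 32 small subunit genes and 81.6% and 79.6% in 49 genes of the mitochondrial large subunit. Holding such a peak was thus not particular to the large subunit genes. The only gene that lost its RPL22L1 summits without flat peaks was RPL36.

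The authors gave each peak a whole-number score, and peaks were ranked by it within their own list. The median RPL22 peak of the large subunit genes ranked within the top 6.95% of its list, where the median over protein-coding genes was 44.6%. In the RPL22L1 list the median rank was 51.4%, against 50.3%. Among peaks that were not flat the median RPL22 rank was 5.55%, with 18.7% over protein-coding genes, and the median RPL22L1 rank was 26.2%, with 23.05%. A peak in the top 5% of the list lay in 18 genes in the RPL22 list, or 40.9% (26.3 to 56.8%), against 20.9% of all protein-coding genes and 12.4% of those of like length. In the RPL22L1 list it lay in 25 genes, or 56.8% (41.03 to 71.7%), against 27% and 13.2%. For the top 1% the numbers were 10 and 13 genes, 22.7% and 29.5% of the list, against 4.41% and 7.18%. Among protein-coding genes of like length, 2.89% and 3.25% held such a peak. In the small subunit genes 37.5% and 31.25% did, and in the genes of the mitochondrial large subunit 4.08% and 6.12%. Peaks in the top 1% were thus shared with the small subunit genes.

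The highest peak of the group lay in RPL15, whose protein sits in the core of the subunit. It ranked 106 in the RPL22 list, with a score of 18284 at 23920446 to 23920498 on chromosome 3, and 179 in the RPL22L1 list, with a score of 16384 at 23920392 to 23920499. The summits lay 3 bases apart. They also lie within NKIRAS1, which overlaps RPL15, and the lists give no strand, so the transcript bound there cannot be told. Of all summits outside snoRNA genes, 17 of 75 and 70 of 247 lay in such a further gene. In the RPL22 list the next genes were RPL8 with its best peak at rank 317, RPL31 at 499, RPL28 at 518, RPLP2 at 534, RPL38 at 622, RPL26 at 944, RPL10A at 1082, RPLP1 at 1217 and RPLP0 at 1408. In the RPL22L1 list they were RPL38 at rank 510, RPL26 at 694, RPLP1 at 710, RPLP0 at 750, RPL34 at 761, RPL14 at 896, RPL11 at 938, RPL6 at 967 and RPL5 at 1286. RPL15, RPL38, RPL26, RPLP1 and RPLP0 were in the leading 10 of both lists. Across the 29 genes with summits in both lists the best ranks had a Spearman correlation of 0.35, a description of genes that share libraries and gene length.

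**Figure D2:**
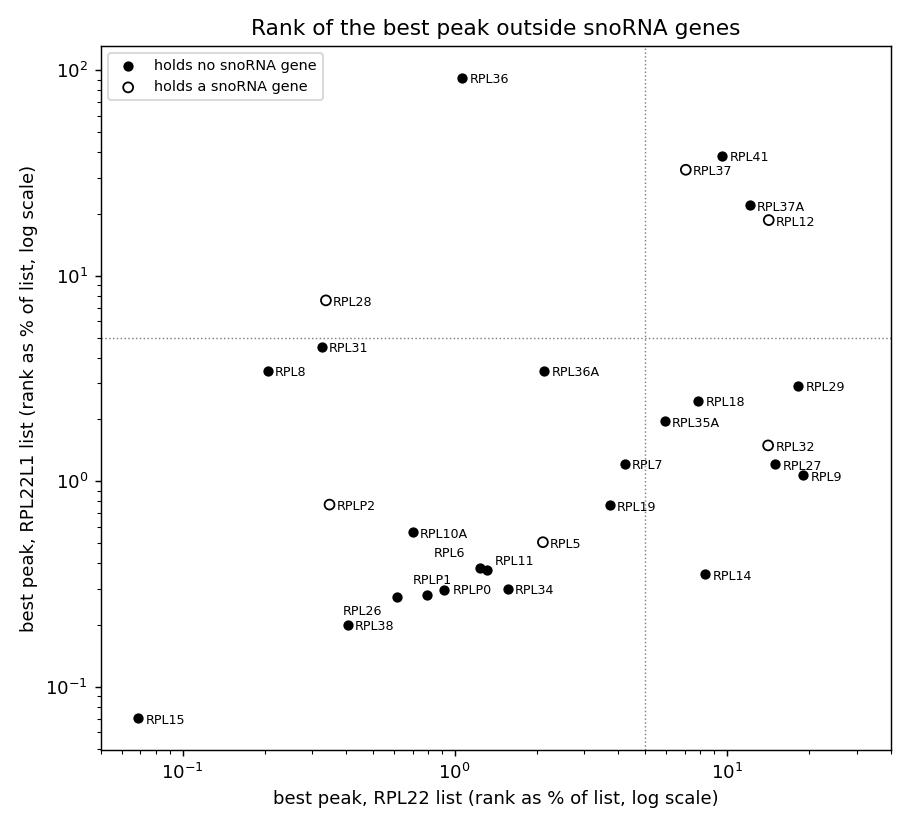
Rank of the best peak outside snoRNA genes as a percentage of its list, RPL22 list (x axis) against RPL22L1 list (y axis), both on a log scale, for the 29 genes with summits in both. Dotted lines mark 5%; RPL15 lies lowest in both at 0.0688% and 0.0704%, and RPL36 is highest on the y axis at 91.6%.

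The place of the peaks was then compared between the lists. Of the 75 RPL22 peaks 41 shared at least 1 base with an RPL22L1 peak, or 54.7% (42.7 to 66.2%), against 19% of RPL22 peaks in all protein-coding genes. Of the 247 RPL22L1 peaks 44 did, or 17.8% (13.3 to 23.2%), against 11.4%. Overlap rises with score in these lists, so the peaks were also split at the top 5%. In the top 5% the RPL22 share was 71.0% (52.0 to 85.8%) against 66.7%, and the RPL22L1 share was 44.4% (29.6 to 60%) against 44.4%. Below the top 5% they were 43.2% (28.3 to 59.0%) against 16.4%, and 11.9% (7.76 to 17.2%) against 9.65%. Of these 4 classes, RPL22 peaks below the top 5% alone had an interval that left out the background share. Ranks still differed within that class, with a median of 14.9% in the large subunit genes and 44.6% over protein-coding genes, so it does not compare peaks of like rank. By shape, 61.5% (48.6 to 73.3%) of RPL22 peaks that were not flat overlapped, against 39.7%, and 1 of 10 flat ones, against 6.11%. For RPL22L1 peaks these values were 25.7% (18.9 to 33.4%) against 26.4%, and 5 of 95 against 6.79%.

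The overlapping peaks formed 44 pairs in 24 genes. The summits of a pair were a median of 9 bases apart, and 36 of the 44 pairs lay within 20 bases. In 13 pairs, from 10 genes, both peaks ranked in the top 5% of their list: RPL6, RPL8, RPL10A, RPL11, RPL15, RPL26, RPL34, RPL38, RPLP0 and RPLP1. In RPLP1, a stalk protein, the RPL22 peak at 69455477 to 69455508 of chromosome 15 scored 601 and ranked 1217. The RPL22L1 peak at 69455476 to 69455513 scored 2023 and ranked 710, with the summit 1 base away. The RPL22 summit lies 2667 bases from the annotated start of a gene of 3388 bases, the most 3′ of the summits of either list in that gene.

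In RPLP0, the base of the stalk, the same happened at 2 places. At 120200708 to 120200740 of chromosome 12 the RPL22 peak had a score of 537 and rank 1408, and the RPL22L1 peak had a score of 1896, rank 750 and the same summit, 385 bases from the nearest annotated start. At 120198721 to 120198781 both lists held a peak over the same bases, with scores of 489 and 453 and ranks of 1627 and 10698. In RPL26, which lines the exit tunnel, the only RPL22 peak lay at 8382154 to 8382225 of chromosome 17 with a score of 736 and rank 944. The RPL22L1 peak there had a score of 1060, rank 1906 and the same summit. The RPL22L1 list held a higher peak in RPL26, with a score of 2080 and rank 694 at 8377563 to 8377640, where the RPL22 list had none.

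In RPL11, which with RPL5 binds MDM2, the summits of both lists also coincided, at 2028 bases from the nearest annotated start. The RPL22 peak had a score of 427 and rank 2029 and the RPL22L1 peak a score of 1594 and rank 938. Its partner RPL5 held no pair outside snoRNA genes. The only RPL22 peak in RPL5 had a score of 316 and rank 3250, and the highest of 7 RPL22L1 peaks a score of 1294 and rank 1286. All 7 RPL22L1 summits also lie within DIPK1A, which overlaps the gene. In RPL10A the shared site had scores of 656 and 1227 and ranks of 1082 and 1437.

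RPL8, near the peptidyl transferase centre, had 7 of the 44 pairs, more than any other of the genes. Of its 7 RPL22 peaks 5 overlapped RPL22L1 peaks, and 7 of its 8 RPL22L1 peaks overlapped RPL22 peaks. Its highest RPL22 peak spanned 144789827 to 144789979 of chromosome 8, with a score of 3303 and rank 317. The RPL22L1 peak inside it had a score of 503 and rank 8761. High peaks without a partner were also present. The RPL31 peak of rank 499 in the RPL22 list and the RPL38 peak of rank 510 in the RPL22L1 list overlapped no peak of the other list.

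**Figure D3:**
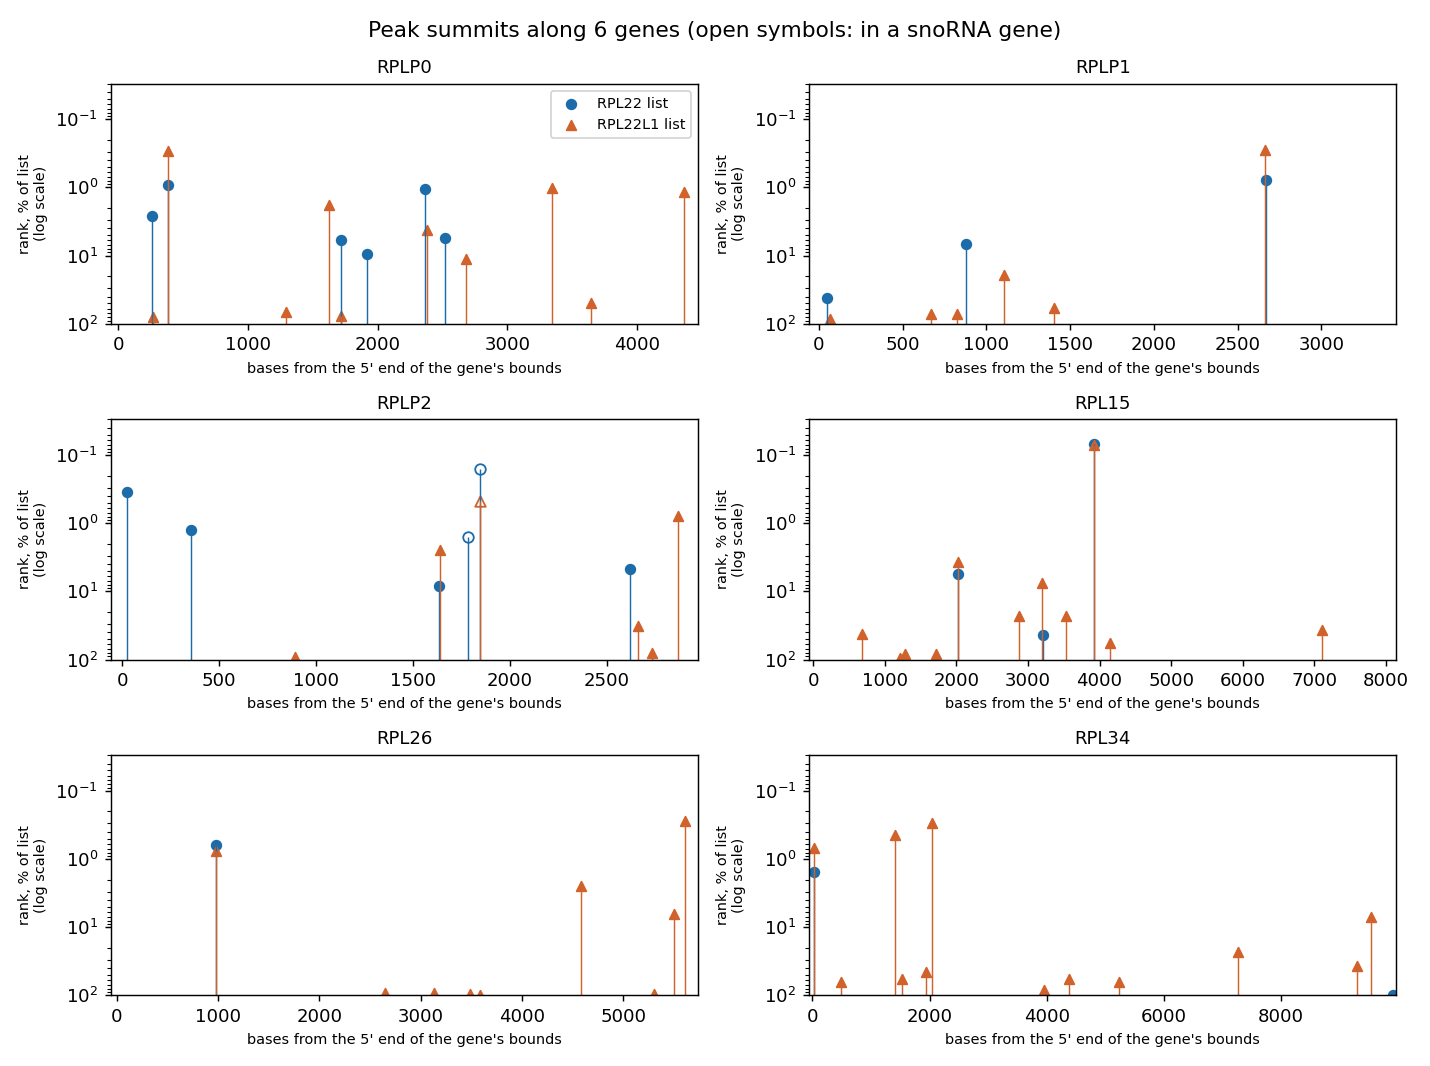
Peak summits along RPLP0, RPLP1, RPLP2, RPL15, RPL26 and RPL34, in bases from the 5′ end of the gene's bounds (x axis), against rank as a percentage of the list on an inverted log scale (y axis, highest-ranking peaks on top). Blue circles are RPL22 peaks and orange triangles RPL22L1 peaks, and open symbols lie in a snoRNA gene. The summits of the pair in RPL26, at 976 bases, share position and stand at 0.613% and 0.749%. The pair in RPLP1 at 2667 bases stands at nearly the same position, at 0.790% and 0.279%.

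An annotated start and strand were given for 37 of the 44 genes. Within 100 bases of a start, 10 of these 37 genes held an RPL22 summit, or 27% (13.8 to 44.1%), against 9.17% of all protein-coding genes. Among RPL22L1 summits 8 of 37 genes had this, or 21.6% (9.83 to 38.2%), against 6.96%. Protein-coding genes of like length gave 8.27% and 6.81%. The shares were 48% and 28% in 25 small subunit genes and 23.8% and 28.6% in 42 genes of the mitochondrial large subunit, so start summits were not particular to these genes. The 10 RPL22 summits made up 15.9% of the 63 in these genes, and the 8 RPL22L1 summits 3.69% of 217. Along the gene, 34.9% (23.3 to 48.0%) of RPL22 summits lay in the first 20% of its length, against 21.4% in protein-coding genes of like length. The corresponding RPL22L1 shares were 19.4% (14.3 to 25.2%) and 16.9%. In the next 20% of the length lay 26.7% (21.0 to 33.1%) of RPL22L1 summits, against 17.2%. For RPL22 summits this was 15.9% (7.88 to 27.3%) against 16.3%. All 10 RPL22 peaks at starts were not flat, and 5 ranked in the top 5%.

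The start sequences below are of the genes with such a summit in both lists or one in the top 5% of a list. They are shown for the letters at the start itself. The summits lay 3 to 64 bases past the start, and only those of RPL19 and RPL36A fell within the bases shown. Each runs 5′ to 3′ on the strand of the gene, from RefSeq on GRCh38.p14, with 30 bases before the annotated start and 20 from it. Capitals mark the longest run of C or T letters that reaches within 5 bases of the start.
RPLP2, chr11:809937-809986, plus strand: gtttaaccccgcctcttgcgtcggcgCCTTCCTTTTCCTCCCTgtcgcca
RPL36, chr19:5690265-5690314, plus strand: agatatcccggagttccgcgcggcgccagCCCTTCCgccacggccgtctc
RPL36A, chrX:101390981-101391030, plus strand: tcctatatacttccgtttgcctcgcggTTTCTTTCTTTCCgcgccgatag
RPL19, chr17:39200293-39200342, plus strand: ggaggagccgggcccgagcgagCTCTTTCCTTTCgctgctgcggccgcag
RPL34, chr4:108620546-108620595, plus strand: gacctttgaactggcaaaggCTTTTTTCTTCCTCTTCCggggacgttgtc
RPL9, chr4:39458903-39458952, minus strand: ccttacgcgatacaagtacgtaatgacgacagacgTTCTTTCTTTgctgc
RPL12, chr9:127451387-127451436, minus strand: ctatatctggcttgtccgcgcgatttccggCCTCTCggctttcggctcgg
RPLP1, chr15:69452788-69452837, plus strand: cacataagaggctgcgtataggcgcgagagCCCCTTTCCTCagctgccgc
RPL38, chr17:74203648-74203697, plus strand: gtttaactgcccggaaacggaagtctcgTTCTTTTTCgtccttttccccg

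The run was 17 letters long in RPLP2, 7 in RPL36, 13 in RPL36A, 12 in RPL19, 18 in RPL34, 10 in RPL9, 6 in RPL12, 11 in RPLP1 and 9 in RPL38. A run of at least 8 C or T letters reaching within 5 bases of the start was present at 32 of the 49 annotated starts of the large subunit genes, or 65.3%, against 11.8% of the starts of all protein-coding genes. It was read on the strand of the gene only. Such a run was found in 10 of the 14 genes with a start summit in either list and in 20 of the 23 without. The run was thus common in the family, and its share was 71.4% with a start peak and 87.0% without.

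At these starts the lists differed from gene to gene. In RPLP2 the RPL22 peak from 809981 to 810050 on chromosome 11 had its summit 24 bases into the gene, a score of 1415 and rank 534, and the RPL22L1 list had no start peak. RPL36, RPL36A and RPL19 likewise held an RPL22 start peak without an RPL22L1 one, at ranks 1643, 3288 and 5735 and 27, 3 and 17 bases from the start. The RPL36A and RPL19 peaks also lie within RPL36A-HNRNPH2 and LOC124903996, which overlap these genes. RPL38, known for its part in the translation of Hox mRNAs, had the reverse, an RPL22L1 peak of rank 510 and score 2918 with its summit 31 bases from the start. RPL34 held a peak of high rank in both lists, at 21 bases with rank 2409 and at 25 bases with rank 1748. RPL9, RPL12 and RPLP1 held start summits in both lists, and none of them ranked in the top 5%.

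The lists differ in length, so summit numbers were compared after the RPL22L1 list had been reduced to its 154000 highest-scoring peaks. In these lists of equal size the 44 genes held 75 RPL22 and 139 RPL22L1 summits. RPL22L1 summits were more numerous in 24 genes, RPL22 summits in 5, and the numbers were equal in 5. The log2 ratio of summit number plus 1, RPL22L1 over RPL22, was above 1 in 14 of 34 genes with a summit, or 41.2% (24.6 to 59.3%), against 6.84% of all protein-coding genes. It was below -1 in 1 gene, or 2.94% (0.0744 to 15.3%), against 12.3%. The median ratio was 1 in the large subunit genes and 0 in all protein-coding genes. Protein-coding genes of like length gave 9.08% above 1 and 15.6% below -1. With the peaks that were not flat, in lists of whole length, the numbers were again 14 and 1 of 34, with 12 of the 14 genes shared, against 9.11% and 16.7% of all protein-coding genes and 11.3% and 18.6% of those of like length. In whole lists with all peaks, 19 genes lay above 1 and 0 below -1, against 24.3% and 5.07%, or 23.3% and 7.76% at like length.

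The largest ratio towards RPL22L1 was that of RPL10, with 0 RPL22 summits and 3 RPL22L1 summits, none of them flat, with scores of 118, 120 and 202 and a log2 ratio of 2. RPL34 followed with 2 and 12 summits, of which 9 stayed in the list of equal size, and a ratio of 1.74. RPL9 held 1 and 9 summits, RPL36A 2 and 14 and RPL37A 1 and 8. RPL24 held 0 and 5, and RPL35 held 0 and 6. These last 5 genes shared a ratio of 1.58, on 5, 8, 5, 2 and 2 RPL22L1 summits in the list of equal size. In RPL24, 4 of the 5 peaks were flat and the best ranked only 129265. All 5 also lie within LOC124906262, which overlaps the gene, and RPL24 was not above 1 without flat peaks. All 14 RPL22L1 summits of RPL36A also lie within RPL36A-HNRNPH2, and 5 of them were flat. In RPL34 the highest RPL22L1 peaks lay 1990 and 1361 bases from the nearest annotated start, with scores of 1868 and 1403, where the RPL22 list had none.

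RPL36 alone passed the limit the other way, with a ratio of -1.58. Its RPL22 peaks had scores of 485 and 51, and its only RPL22L1 peak was flat, with a score of 33 and rank 233151. RPL35A, RPL28, RPL11 and RPLP2 followed with ratios of -0.42, -0.36, -0.32 and -0.32. In whole lists these 4 genes held 3 and 5, 8 and 10, 4 and 8, and 4 and 5 summits. All 3 and 5 summits of RPL35A also lie within DRC9, which overlaps that gene. RPL28 held 8 RPL22 summits, of which 4 were flat and 4 also lie within UBE2S, which overlaps the gene. Without flat peaks it held 4, and RPL8 and RPLP0 held 6 each. The best RPL28 peak ranked 518 in the RPL22 list while the RPL22L1 peak at the same place ranked 48629.

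**Figure D4:**
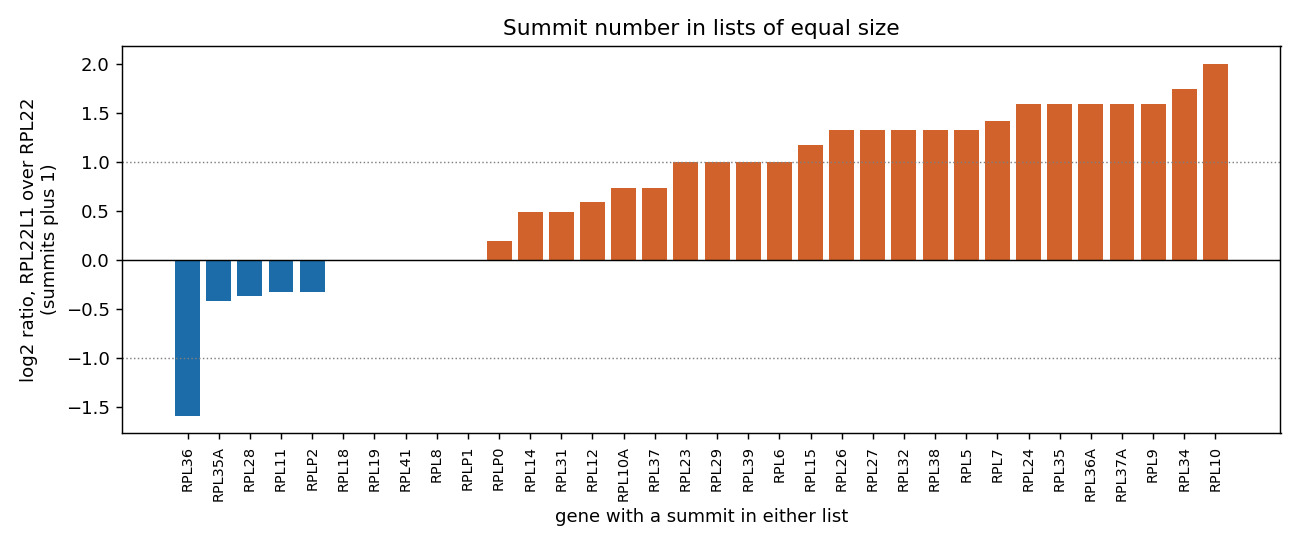
Log2 ratio of summit number plus 1, RPL22L1 over RPL22, in lists of equal size for the 34 genes with a summit in either list, 1 library each. Dotted lines mark 1 and -1; 14 genes lie above 1, with RPL10 highest at 2, and RPL36 lies lowest at -1.58.

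Peaks outside snoRNA genes were missing from 10 of the 44 genes in both lists, or 22.7% (11.5 to 37.8%), against 25.1% of all protein-coding genes and 40.5% of those of like length. They were RPL3, RPL4, RPL7A, RPL13, RPL13A, RPL17, RPL21, RPL23A, RPL27A and RPL30. Each of these 10 genes holds a snoRNA gene. Of the 19 genes with a held snoRNA gene, 6 held an RPL22 summit elsewhere, or 31.6% (12.6 to 56.6%), and 9 an RPL22L1 summit, or 47.4% (24.4 to 71.1%). Of the 25 genes without, 23 and 25 did, or 92% (74.0 to 99.0%) and 100% (86.3 to 100%). The split was noticed in these data and has no test. The same numbers of holding genes, 6 and 9, had a peak that was not flat.

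In other genes of like length the shares ran the other way, while the split was present among the genes of the small subunit. Among protein-coding genes of like length, with RPL and RPS genes left out, 58.3% of 72 with a held snoRNA gene had an RPL22 summit elsewhere, and 51.3% of those without. For the RPL22L1 list these shares were 77.8% and 52.6%. These genes were not chosen by RNA level, so the shares do not compare genes of like expression. Among the genes of the small subunit, 2 and 4 of 9 with a held snoRNA gene had a summit, and 21 and 20 of 23 without. Summit density by distance from the held snoRNA gene compares different genes as well as different distances. There were 0.0955 RPL22 and 0.134 RPL22L1 summits per kb within 1 kb of a held snoRNA gene, 0.129 and 0.428 from 1 to 5 kb, and 0.387 and 0.773 farther away. The class beyond 5 kb came from 5 genes, and RPL28 made up 11.7 of its 15.5 kb and held 3 of 6 and 8 of 12 of its summits. Without RPL28 the densities were 0.0395 and 0.138, 0.0937 and 0.422, and 0.778 and 1.04 per kb, the last on 3 and 4 summits. Genes without a held snoRNA gene had 0.401 and 1.44 per kb.

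**Figure D5:**
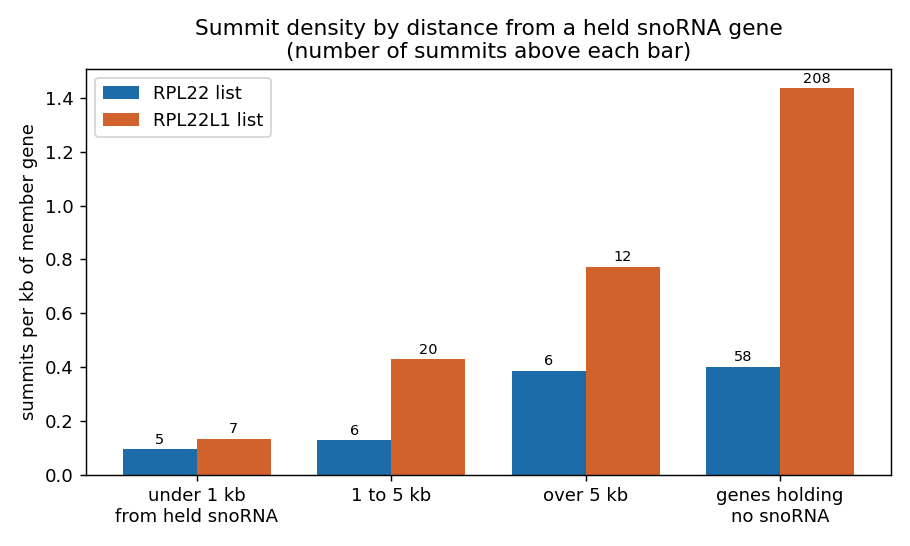
Summits per kb of large subunit gene outside snoRNA genes by distance from the nearest held snoRNA gene, for the RPL22 list (blue) and the RPL22L1 list (orange), with the number of summits above each bar. Density was lowest within 1 kb, at 0.0955 and 0.134 per kb on 5 and 7 summits, and was 0.401 and 1.44 per kb in genes that hold no snoRNA gene. The classes hold different genes, and RPL28 makes up 11.7 of the 15.5 kb beyond 5 kb.

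A peak in the snoRNA gene itself did not accompany the gap in every gene. Of the 11 holding genes with an RPL22 summit in a snoRNA gene, 5 had an RPL22 summit elsewhere, and of the 14 with an RPL22L1 summit there, 6 had an RPL22L1 summit elsewhere. Of the 8 holding genes whose snoRNA genes had no RPL22 summit, only RPL32 had an RPL22 summit elsewhere. Of the 5 without an RPL22L1 summit in a snoRNA gene, RPL10, RPL23 and RPL32 had RPL22L1 summits elsewhere, 10 in all. The shares thus ran opposite ways in the lists. RPL13 and RPL13A held no summit of any kind in either list. RPL13A, known for silencing mRNAs away from the ribosome, holds 4 snoRNA genes. How the peak caller set its local background, and which control it used, is not given in the sources used here, and the part of peak calling in these gaps was not tested.

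The held snoRNA genes numbered 40, of which 13 contained an RPL22 summit, or 32.5% (18.6 to 49.1%), and 16 an RPL22L1 summit, or 40% (24.9 to 56.7%). Over all 1199 annotated snoRNA genes the shares were 11.6% and 15.7%. These were not chosen by RNA level, so the shares do not compare snoRNAs of like expression. In 11 of the 40 both lists had a summit, in 2 only the RPL22 list and in 5 only the RPL22L1 list. Box H/ACA snoRNAs, which guide pseudouridylation, had summits in 7 and 7 of 12 genes, and box C/D snoRNAs, which guide ribose methylation, in 6 and 9 of 28. The best peak ranked in the top 1% of its list in 12 of the 13 snoRNA genes for RPL22 and in 15 of the 16 for RPL22L1. Over all snoRNA genes with a summit the share was 59% and 60.6%. The gene outside it in both lists was SNORD157 in RPL28, at ranks 5095 and 131311. SNORA52 in RPLP2 held a second RPL22 peak, at rank 2436, also outside the top 1%.

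Ranks of the same snoRNA were often close. SNORA72 in RPL30 ranked 28 and 32, SNORA66 in RPL5 ranked 51 and 73, SNORA3B in RPL27A ranked 49 and 83, and SNORD72 in RPL37 ranked 81 and 55. SNORA69 in RPL39 ranked 61 and, at the same place, 120, and its best RPL22L1 peak, at rank 58, overlapped no RPL22 peak. SNORD43 in RPL3 ranked 42 and 106, SNORD4B in RPL23A ranked 117 and 202, SNORA65 in RPL12 ranked 218 and 300, SNORD24 in RPL7A ranked 242 and 661 and SNORA52 in RPLP2 ranked 250 and 1196. SNORD83B in RPL3 and SNORA3A in RPL27A had a summit in the RPL22 list only, at ranks 24 and 85. SNORD18B and SNORD18C in RPL4, SNORD58C in RPL17, SNORA27 in RPL21 and SNORD36B in RPL7A had one in the RPL22L1 list only, at ranks 21, 56, 24, 166 and 185. SNORD4, SNORD18, SNORD36, SNORD58, SNORD83 and SNORA3 are families of related copies in the same host genes, between which reads can be divided. Their ranks, and the presence of some of them in 1 list only, are therefore uncertain.

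Where the strand of the host gene was known, the best summit of a snoRNA lay past its midpoint towards the 3′ end in 7 of 9 cases in the RPL22 list and in 11 of 12 in the RPL22L1 list. This takes the snoRNA to lie on the strand of its host. For snoRNAs in other protein-coding genes of known strand it was 51 of 65, or 78.5%, and 78 of 94, or 83.0%.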

How the data were processed

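Peak lists of 1 RPL22-HaloTag and 1 RPL22L1-HaloTag library were used, with groups taken from the genotype in the labels. Per the submitters' processing notes, cutadapt 4.8, STAR 2.7.10a, UMI-tools 1.1.5, MACS3 3.0.0a6 and hg38 were used, with no order or options given. The handling of reads that match several places is not given in the sources used here. Each deposited list has 10 columns and no strand, and the authors' score per peak starts at 13 in both. The term qpois in the peak names points to a scaled −log10 Poisson q-value, which was not settled. Scores were used only for ranks within a list.

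Gene bounds came from RefSeq GRCh38.p14, without exons. The summit is column 2 plus column 10 plus 1. Lists of equal size kept the highest scores, with ties in order of chromosome name and position. The tools were scipy 1.17.1, pandas 2.3.3, numpy 2.4.6 and matplotlib 3.10.9, under Python 3.11.15. Alternatives covered flat peaks, score, list size, overlap, start window, nested genes, snoRNA summits with and without a margin, and the summit minimum. Overlap was tested with planted peaks, and counting was set against a direct search of the deposited RPL22 peaks. Members and lists were chosen with earlier results of these data known. Genes named were, in each list, the 10 with the best-ranking peak outside snoRNA genes, the 5 with the largest summit ratio each way (with ties), those with pairs in the top 5% of both lists, those without summits, and those whose snoRNA ranked in the top 1%. Other genes named for starts or roles were chosen after their values were seen.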

Additional observations from a re-analysis of the deposited data

How the results depend on the processing

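Values describe 2 libraries with unknown read numbers. No paired analysis was possible because each group has 1 library. Of 70 alternative values for 18 results, 12 left their interval or a 1.5-fold range and 58 did not. Of these 58, 5 belong to the RPL22 list in lists of equal size. That list was not cut, so they stayed by construction, except the overlapping share, which went from 54.7% to 52%. Requiring 3 summits left 11 genes in the RPL22 list. The 247 RPL22L1 summits became 152 without flat peaks, 114 when only peaks from the median score up were kept, and 139 when list sizes were made equal. The RPL22L1 share overlapping became 25%, 32.5% and 28.8% in these settings, and 10.9% with overlap of 50% of both peaks, which gave 36% for the RPL22 list. The median RPL22L1 rank without flat peaks was 26.2%. A window of 250 bases gave 14 RPL22L1 summits near starts. In lists of whole length 0 genes had a ratio below -1. The ratio without flat peaks, the ratio in whole lists the split by held snoRNA without flat peaks and the densities without RPL28 were chosen after the data were seen. The causes of these shifts were not tested, apart from the removal of peaks that the settings make.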

Other observations

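Processed copies of the large subunit genes are many. RefSeq names 1234 pseudogenes after the 44 genes, of which 101 held an RPL22 summit and 129 an RPL22L1 summit. The 10 genes without a summit outside snoRNA genes had a median of 20.5 such copies (7 to 137), and the other 34 genes a median of 19.5 (5 to 64). Genes with a held snoRNA gene had a median of 25 copies and genes without a median of 13. How reads shared between a gene and its copies were placed is not given, and their part in the summit numbers was not tested.

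Close paralogs outside the group differed. RPL3L, RPL10L and RPL39L held 0 summits in both lists. RPL7L1 held 8 and 16 summits, RPL26L1 held 5 and 4, and RPL36AL held 3 and 3. The gene of RPL22 itself held 5 and 17, and that of RPL22L1 held 4 and 3. Without flat peaks RPL7L1 held 7 and 7, RPL26L1 2 and 0, and RPL36AL 1 and 2. The genes of RPL22 and RPL22L1 then held 3 and 6, and 4 and 3. The 32 genes of the small subunit held 0.308 RPL22 and 0.784 RPL22L1 summits per kb, and 53.1% of them held a peak in the top 5% in each list. The 49 genes for large subunit proteins of the mitochondrial ribosome held 0.303 and 0.531 per kb. In lists of equal size, 4 of 25 small subunit genes and 2 of 46 mitochondrial genes had a log2 ratio above 1.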
